A study of Homo sapiens with 20 samples.

Results

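The IFIT and IFITM genes are interferon-stimulated antiviral genes, and their mRNA was followed here in human U2OS osteosarcoma cells with and without IFNγ. The 7 members, IFIT1, IFIT2, IFIT3, IFIT5, IFITM1, IFITM2 and IFITM3, were taken by symbol from the 43366 RefSeq genes in the count table, with no threshold on any measured value. The study set out to learn how the transcription factor ZBTB48 shapes transcription after IFNγ. It used 5 WT clones and 5 ZBTB48 KO clones of U2OS as biological replicates, and each clone was sequenced once with no treatment and once after 24 h in medium with IFNγ at 250 U/ml, which gave 20 mRNA libraries in 4 groups of 5. Every group therefore holds the same cell line in the same medium, the genotype and the IFNγ are the only labelled differences, and the spread within a group is the spread between clones.

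IFIT proteins bind RNA in the cytosol. IFIT1 recognises capped RNA that lacks ribose methylation beside the cap and blocks its translation, IFIT3 and IFIT2 assemble with IFIT1 into a complex, and IFIT5 acts alone and binds RNA with an uncapped, phosphorylated end. IFITM proteins are small membrane proteins that hinder the fusion of enveloped viruses with the cell: IFITM3 and IFITM2 sit mostly in endosomes, where virus particles taken up by the cell are held, and IFITM1 sits mostly at the cell surface. Type I interferons, such as IFNβ, act through a complex that holds STAT2 and IRF9 on the interferon-stimulated response element (ISRE), whereas IFNγ, the type II interferon, acts on the gamma-activated site (GAS) and induces IRF1, which can also bind the ISRE. Both families are known chiefly as type I interferon genes.

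The start sites are shown because the motif content of the members bears on a comparison of type I genes after a type II interferon. The IFIT genes lie together on the plus strand of chromosome 10 (GRCh38), with IFIT2 at 89302046 to 89309271, IFIT3 at 89327997 to 89340968, IFIT1 at 89392623 to 89406487 and IFIT5 at 89414568 to 89420997. The IFITM genes lie on chromosome 11, with IFITM2 at 307816 to 309395 and IFITM1 at 314040 to 315272 on the plus strand and IFITM3 at 319676 to 320860 on the minus strand. RefSeq start-site windows (GRCh38.p14) were matched for IFIT1, IFIT3, IFIT5, IFITM1 and IFITM3, with 2 start sites for IFIT3, and were searched on both strands for an ISRE-like motif, GAAA followed by any 2 bases and GAAA again, and a GAS-like motif, TTCNNNGAA. Below, each sequence runs from 160 bases before the start site to 10 bases from it, in the direction of transcription, with motif matches in capitals.
IFIT1, chr10:89392463-89392632, plus strand: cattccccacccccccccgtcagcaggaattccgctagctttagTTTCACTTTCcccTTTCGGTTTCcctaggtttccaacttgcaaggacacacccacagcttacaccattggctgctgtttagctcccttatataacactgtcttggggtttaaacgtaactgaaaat
IFIT3, first start site, chr10:89327837-89328006, plus strand: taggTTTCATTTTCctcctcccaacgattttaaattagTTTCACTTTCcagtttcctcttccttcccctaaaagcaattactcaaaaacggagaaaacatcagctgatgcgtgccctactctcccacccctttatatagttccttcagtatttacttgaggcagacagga
IFIT3, second start site, chr10:89332369-89332538, plus strand: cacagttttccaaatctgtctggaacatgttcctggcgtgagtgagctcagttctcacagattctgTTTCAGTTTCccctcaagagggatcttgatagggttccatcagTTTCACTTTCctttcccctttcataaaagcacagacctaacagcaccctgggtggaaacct
IFIT5, chr10:89414408-89414577, plus strand: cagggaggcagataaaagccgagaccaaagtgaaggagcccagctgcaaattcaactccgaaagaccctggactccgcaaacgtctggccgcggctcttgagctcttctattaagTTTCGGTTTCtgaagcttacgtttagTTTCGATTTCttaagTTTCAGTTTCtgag
IFITM1, chr11:313880-314049, plus strand: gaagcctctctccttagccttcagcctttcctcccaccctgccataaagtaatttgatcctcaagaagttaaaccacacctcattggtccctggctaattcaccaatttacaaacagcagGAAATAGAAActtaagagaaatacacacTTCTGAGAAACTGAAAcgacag
IFITM3, chr11:320851-321020, minus strand: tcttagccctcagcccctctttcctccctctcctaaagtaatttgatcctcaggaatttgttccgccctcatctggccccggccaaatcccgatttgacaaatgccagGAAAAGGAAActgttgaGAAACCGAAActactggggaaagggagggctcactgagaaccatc
All 6 windows held at least 2 ISRE-like matches, and IFIT5 held 3. Over the RefSeq table, 3.57% of 35116 windows of 300 bases held at least 1. The GAS-like motif was found in the IFITM1 window alone, from base -12 to base -4, where its last bases overlap an ISRE-like match that runs from -6 to 4, and 7.66% of all windows held such a motif. These are matches of letters in a short window and not measured binding sites.

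Total counts ran from 46652288 to 72952859 per library, and 3 counts, taken as the floor of detection, equal 0.0404 to 0.0609 CPM (read counts divided by the library size, which was scaled by TMM). ZBTB48 mRNA, the targeted gene, was 8.02 to 11.6 CPM in the WT clones and 1.29 to 5.27 CPM in the libraries labelled KO, except in KO replicate 3. There it was 11.3 CPM untreated and 15.8 CPM after IFNγ, so the mRNA of this pair was not below that of WT. Gene counts do not show whether the protein was made. In KO replicates 4 and 5 the deviations of a treated library from its group mean correlated best with those of untreated replicate 5 and 4, respectively (Pearson's r across 14852 genes of 0.833 and 0.756, against 0.0183 and 0.0889 for equal numbers), which touches values paired by clone and not comparisons of whole groups. Of the U2OS lineage, 8 osteoblast markers summed to 3826 to 9164 CPM in WT, 2034 to 7988 in KO, 2353 to 5658 in treated WT and 1068 to 5280 in treated KO libraries, mainly from COL1A1 and SPARC. IBSP was at or below 3 counts throughout, SP7 had at most 4 and BGLAP at most 6 counts in any library. COL1A2 had group means of 0.26 to 0.33 CPM. Only 4 or 5 of the 8 markers were tested in each comparison and none was called, and their part in the results was not tested. Markers of blood cells summed to 0.313 to 1.14 CPM.

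IFNγ raised 5 members past the cut-offs in the WT clones and 4 of them in the KO clones, and the size of the rise differed widely within each family. IFITM1 rose from near the floor, IFIT3 rose about 41.0-fold in WT, and IFIT2, IFITM3 and IFIT5 rose by several fold in WT. There IFIT1, at 2.10-fold, missed the p threshold and IFITM2 stayed within the spread between clones. These fits did not pair libraries by clone. With the clone as a replicate block IFIT1 was called in WT, and IFITM2 rose within each WT clone by a step short of 2-fold. In these bulk libraries more RNA per cell and more cells with the RNA cannot be told apart. A gene was called when edgeR's quasi-likelihood test gave a Benjamini-Hochberg adjusted p under 0.01 over all genes tested and the change was over 2-fold. The study used these cut-offs between WT and KO, and they were applied to the responses here too. Among all 19522 genes tested in WT 2.48% were called higher, and among the 19385 tested in KO 1.7% were. The treated and untreated libraries of these 5 members did not overlap in either genotype, against 6.68% of genes in WT and 6.07% in KO with every treated library higher. An unadjusted p under 0.05 was found for 6 of the 7 members in each genotype, against 24.9% of genes in WT and 23.5% in KO.

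**Figure D1:**
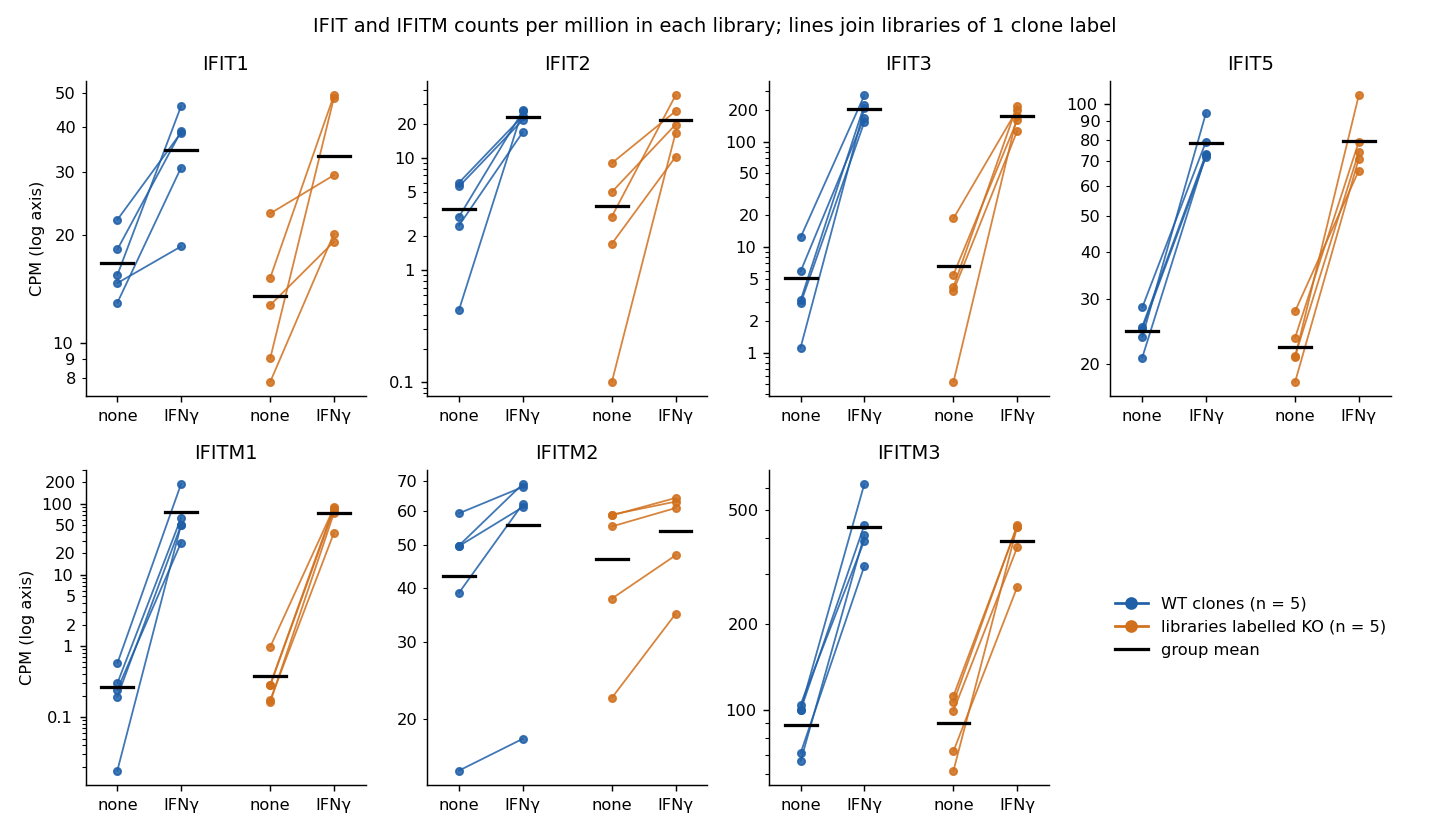
CPM of each member (vertical log axis) in each of the 20 libraries, untreated or with IFNγ, with WT clones in blue, libraries labelled KO in orange, lines between libraries with the same clone label and black bars for group means (n = 5). IFIT2, IFIT3, IFIT5, IFITM1 and IFITM3 have no treated library as low as any untreated one, while IFIT1 and IFITM2 overlap.

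IFIT3, the scaffold that strengthens RNA binding by IFIT1, measured 2.93, 5.89, 12.4, 3.13 and 1.12 CPM in untreated WT replicates 1 to 5 and 154, 169, 276, 223 and 208 CPM after IFNγ. In the KO clones it measured 3.84, 0.526, 18.8, 4.20 and 5.48 CPM untreated and 126, 176, 202, 220.1 and 159.6 CPM treated. Treated and untreated libraries lay far apart in both genotypes. The log2 fold change was 5.36 ± 0.57 (SE) in WT (edgeR, adjusted p = 1.56e-04) and 4.75 ± 0.72 in KO (adjusted p = 0.00285). DESeq2 with normal shrinkage, the study's tool, gave 3.02 in WT and 2.16 in KO. Without KO replicate 3, which had the highest untreated level, the KO value was 5.60 (edgeR adjusted p = 0.00232). It was 4.43 and no longer called without KO replicates 4 and 5 (edgeR adjusted p = 0.208), and leaving out replicate 1, 4 or 5 singly (adjusted p from 0.0237 to 0.0300) or the filter on low counts (0.0166) also ended the call.

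IFIT2, which prefers AU-rich RNA, measured 2.50, 5.56, 6.01, 2.98 and 0.443 CPM in the untreated WT clones and 16.9, 21.7, 23.5, 25.9 and 26.8 CPM after IFNγ. In the KO clones the values were 1.72, 0.101, 8.96, 3.001 and 4.97 CPM untreated and 10.2, 16.6, 25.97, 36.0 and 19.8 CPM treated. WT replicate 5 and KO replicate 2 were lowest before treatment, as they were for IFIT3, and neither was the lowest of its group after it. IFIT2 was called in WT, at 2.73 ± 0.51 (edgeR, adjusted p = 0.00580), and missed the threshold in KO, at 2.53 ± 0.77 (edgeR, adjusted p = 0.0688). With DESeq2's shrinkage the values were 1.63 and 0.83. The WT call was lost with the clone as a replicate block (log2 fold change 2.90, edgeR adjusted p = 0.0181), with no filter on low counts (0.0169), with all 20 libraries fitted together (0.0188) and without WT replicate 1, 2, 3 or 4 (adjusted p from 0.0158 to 0.0413). The groups did not overlap in either genotype (exact permutation test, two-sided, p = 0.00794, the smallest that 5 against 5 libraries can give, and 0.0222 after Benjamini-Hochberg adjustment over 28 tests).

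IFIT1, the cap sensor, measured 14.7, 12.9, 18.2, 22.1 and 15.5 CPM in untreated WT clones and 18.6, 30.9, 39.0, 38.7 and 45.8 CPM after IFNγ. In the KO clones it measured 7.78, 9.05, 12.7, 15.2 and 23.0 CPM untreated and 20.2, 48.4, 19.2, 49.2 and 29.4 CPM treated. The groups overlapped in both genotypes, because the weakest treated WT library lay below the strongest untreated one and KO replicate 5 was high before treatment. The log2 fold change was 1.07 ± 0.23 in WT (edgeR, adjusted p = 0.0129) and 1.29 ± 0.36 in KO (edgeR, adjusted p = 0.0506), and neither passed. With the clone as a replicate block IFIT1 was called in WT (log2 fold change 1.03, edgeR adjusted p = 0.00242), as it was with no filter on low counts (0.00718) and without WT replicate 1 (0.00957), and DESeq2 without shrinkage called it in both genotypes (adjusted p = 2.22e-04 in WT and 0.00522 in KO).

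IFIT5, the family member that works outside the complex, was the most even of the 7. It measured 20.8 to 28.4 CPM (median 24.9) in untreated WT clones and 72.0 to 94.3 CPM (median 73.3) after IFNγ, and 17.9 to 27.8 CPM (median 21.1) and 66.1 to 105 CPM (median 74.2) in the KO clones. The rise was 1.69 ± 0.12 on the log2 scale in WT (edgeR, adjusted p = 6.31e-06) and 1.83 ± 0.16 in KO (edgeR, adjusted p = 6.39e-05), or 3.22-fold and 3.56-fold. Without KO replicates 4 and 5 the KO value was 1.64, past the fold but not the p threshold (edgeR adjusted p = 0.0363).

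IFITM1, the family member of the cell surface, was close to the floor before IFNγ and far above it afterwards. Its counts in the untreated WT libraries were 18, 11, 12, 35 and 1, and in the untreated KO libraries 9, 8, 17, 17 and 49. After IFNγ it measured 63.1, 50.01, 28.4, 189 and 50.3 CPM in WT and 38.9, 73.8, 82.9, 89.0 and 87.7 CPM in KO. WT replicate 4 stood well above the others after treatment and was also the highest before it, at 0.570 CPM. The log2 fold change was 8.15 ± 0.75 in WT (edgeR, adjusted p = 5.00e-05) and 7.64 ± 0.53 in KO (edgeR, adjusted p = 1.09e-05), which is 285-fold and 199-fold. With so few untreated counts the fold is loosely set, with 95% intervals of 91.8 to 884-fold in WT and 89.2 to 444-fold in KO. The study's own tool, DESeq2 with normal shrinkage, gave a log2 fold change of 1.91 in WT and 4.57 in KO. Both shrunken values lie below edgeR's intervals on that scale (6.52 to 9.79 in WT and 6.48 to 8.79 in KO). In WT the lowest treated library had 28.4 CPM and the highest untreated one 0.570 CPM. IFITM1 was the sole member still called in KO without replicates 4 and 5 (log2 fold change 8.28, edgeR adjusted p = 0.00274).

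IFITM3, which restricts viruses in endosomes, had the highest level per exon length of the 7 in every group. It measured 100.1, 105, 70.8, 100.5 and 66.3 CPM in untreated WT clones and 444, 391, 319, 617 and 409 CPM after IFNγ, against 71.9, 61.5, 99.6, 112 and 107 CPM and then 269, 438, 371, 438 and 443 CPM in KO. All treated libraries lay above all untreated ones. The rise was 2.32 ± 0.20 in WT (edgeR, adjusted p = 3.57e-05) and 2.12 ± 0.20 in KO (edgeR, adjusted p = 1.28e-04), or 4.99-fold and 4.33-fold. In KO without replicates 4 and 5 it was 2.21 and missed the p threshold (edgeR adjusted p = 0.0333).

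IFITM2, its close relative in endosomes, measured 49.9, 59.2, 49.8, 38.9 and 15.2 CPM in untreated WT clones and 69.0, 68.0, 61.1, 62.1 and 18.02 CPM after IFNγ. In the KO clones the values were 37.7, 22.4, 58.5, 55.2 and 58.8 CPM untreated and 47.4, 34.8, 64.2, 60.8 and 62.9 CPM treated. The differences between clones were larger than the step with IFNγ. The log2 fold changes were 0.40 ± 0.39 in WT (edgeR, adjusted p = 0.591) and 0.22 ± 0.27 in KO (edgeR, adjusted p = 0.691), with 95% intervals of -0.45 to 1.24 and -0.37 to 0.80. Within clone labels the step was small and had the same sign throughout. It was higher in 5 of 5 WT clones, by 0.38 ± 0.20 log2 units (SD, n = 5), and in 5 of 5 KO labels, by 0.27 ± 0.22. When the replicate block was added, edgeR's adjusted p = 6.81e-04 in WT at 0.39 log2 units, short of the 2-fold cut-off, and 0.103 in KO at 0.27 log2 units. Both KO readings pair replicates 4 and 5 by label, although their treated libraries resembled the untreated library of the other number. Without these replicates the KO step was 0.37 ± 0.25 log2 units (SD, n = 3).

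IFITM2 and IFITM3 are close in sequence, which bears on their counts because only uniquely mapped reads were kept. Of the 462 windows of 150 bases, 1 read length, along the joined exons of IFITM3, 22.5% matched IFITM2 with at most 4 mismatches, the number the authors' alignment allowed per read pair, and so did 12.1% of the 857 windows along IFITM2. No window was identical, the closest having 2 mismatches. The limit applies to a read pair and sets whether it aligns, not whether it maps to a single place. These shares are therefore not shares of reads lost, which were not measured. Between IFITM1 and IFITM3 2.16% of the IFITM3 windows matched, and no window was shared among the 4 IFIT genes. Copies elsewhere in the genome were not searched. Exons of IFIT1 and IFIT5 overlap LOC107984251, and exons of IFIT3 overlap LOC101926887, both on the opposite strand and at no more than 181 and 73 counts in any library. These counts do not show how many reads over the overlaps were left out of the members.

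Of the other genes of these families none was called. IFITM10 was at -0.49 ± 0.25 in WT and -0.42 ± 0.27 in KO on the log2 scale (edgeR, adjusted p = 0.248 and 0.383). IFIT1B had at most 15 counts, IFITM4P at most 7 and IFITM5, the bone-specific member, at most 3 in any library, and none of these was tested. IFIT1P1 had no matching symbol in the table.

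WT and KO clones were then compared member by member, the comparison that speaks to ZBTB48. None of the 7 was called untreated, after IFNγ or in the difference between the responses, against 0.0154% of all genes tested in untreated libraries, 0.0155% in treated libraries and 0% (0 of 21052) for the difference between responses. In untreated libraries WT minus KO ran from -0.49 for IFITM1 to 0.29 for IFIT1 on the log2 scale (edgeR, adjusted p from 0.980 to 0.996). After IFNγ it ran from -0.02 for IFIT5 to 0.22 for IFIT3 (edgeR, adjusted p from 0.996 to 0.999). No member had an unadjusted p under 0.05 in these 3 comparisons, whereas 4.79%, 4.35% and 0.409% of all genes did. DESeq2 without shrinkage called none of the 7 either. The fit of the difference between responses did not pair libraries by clone. Its 0.409% is far below the share of genes that chance alone would bring under 0.05. That test was therefore too strict for its lack of calls to say much about the members.

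**Figure D2:**
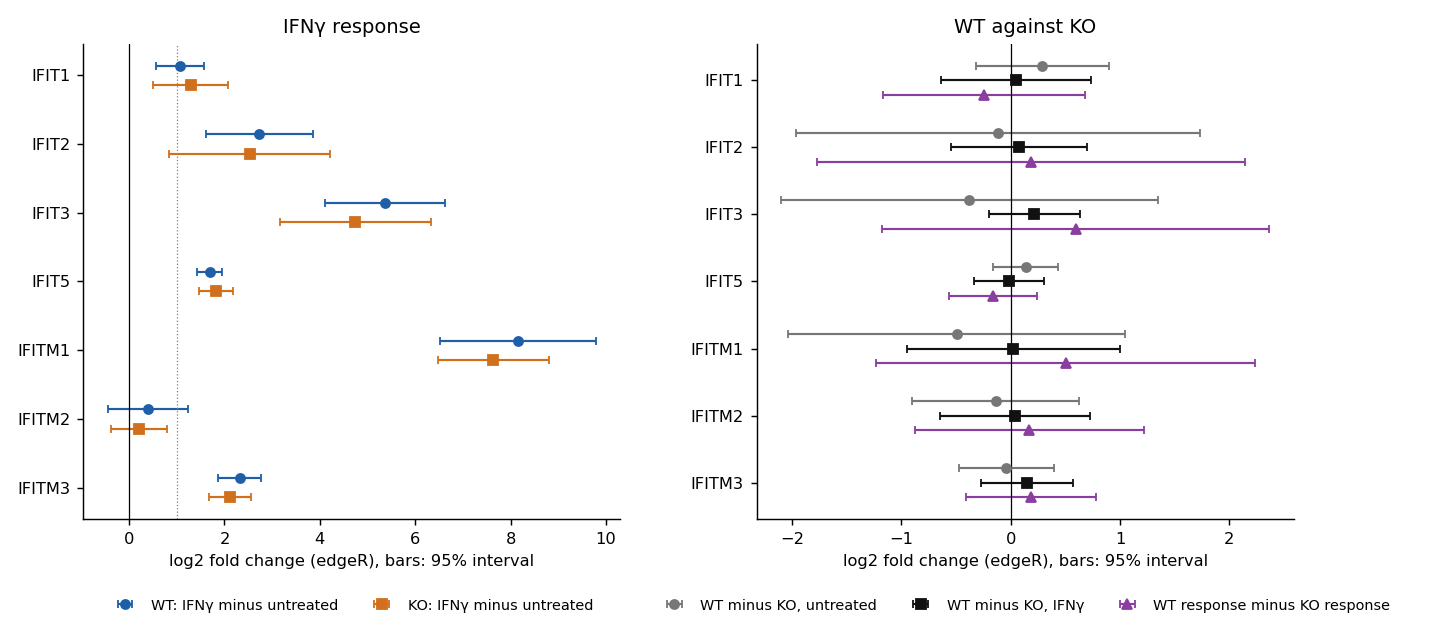
Log2 fold changes of the 7 members with 95% intervals from edgeR (n = 5 libraries a group), with the IFNγ response in WT and KO on the left (dotted line at 2-fold) and WT minus KO, untreated, treated and as the difference of responses, on the right. IFITM1, IFIT3 and IFIT2 rise most on the left, and on the right every interval spans 0.

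How large a difference these data leave room for varied with the member. After IFNγ the 95% interval of WT minus KO was -0.34 to 0.30 for IFIT5, -0.27 to 0.57 for IFITM3 and -0.20 to 0.63 for IFIT3 in log2 units, and it stayed within a 2-fold difference for all 7 members, if narrowly for IFITM1 (-0.95 to 0.996). The untreated intervals were wide for IFIT2 (-1.97 to 1.74), IFIT3 (-2.10 to 1.34) and IFITM1 (-2.03 to 1.05), where a difference of 2-fold was not detectable. Levels of WT and KO overlapped for every member in both conditions, where 1% of genes untreated and 0.805% treated had groups that did not overlap, with exact permutation p from 0.238 to 0.944 (two-sided, 0.513 to 0.944 adjusted over 28 tests).

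Responses taken clone by clone overlapped between genotypes as well. All 7 members rose in every pair of libraries, 5 of 5 in WT and 5 of 5 in KO. The mean response differed between genotypes by between -0.27 log2 units for IFIT1 and 0.28 for IFIT3, with exact permutation p from 0.421 to 0.849 (two-sided, 5 against 5 clones, all 0.849 after adjustment over the 7 members). The edgeR estimate of the difference in response was largest for IFIT3, at 0.59 with an interval of -1.18 to 2.37. Without KO replicate 3 this estimate was -0.26 (edgeR adjusted p = 1.00), and the untreated WT minus KO value of IFIT3 went from -0.38 to 0.52 and that of IFIT2 from -0.12 to 0.50, so these signs depend on that replicate. The untreated sign of IFIT2 also turned with all libraries kept, at 0.31 as the mean difference of log2(CPM + 0.1). It was 0.0803 in edgeR with the replicate block, which between WT and KO joins unrelated clones by number. Without KO replicates 4 and 5 no member was called in any of these comparisons, and the by-clone p values were 0.393 to 0.964 (exact permutation test, 5 against 3 clones).

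Divided by exon length, the order of the members changed with IFNγ. In untreated WT clones it ran IFITM3 (145 ± 29.97 CPM per kb, SD, n = 5), IFITM2 (42.4 ± 16.8), IFIT5 (6.10 ± 0.68), IFIT1 (3.59 ± 0.77), IFIT3 (1.95 ± 1.69), IFIT2 (1.03 ± 0.68) and IFITM1 (0.397 ± 0.300), and untreated KO clones had the same order. After IFNγ it ran IFITM3 (714 ± 182), IFITM1 (114 ± 96.3), IFIT3 (78.8 ± 18.4), IFITM2 (55.3 ± 21.2), IFIT5 (19.4 ± 2.33), IFIT1 (7.44 ± 2.24) and IFIT2 (6.77 ± 1.16) in WT, again with the same order in KO. IFITM1 moved from rank 7 to rank 2 and IFIT3 from rank 5 to rank 3. Neighbours in the treated order were not all distinct, since IFITM1 exceeded IFIT3, and IFIT3 exceeded IFITM2, in 3 of 5 WT libraries each, and IFIT1 exceeded IFIT2 in 4 of 5 WT and 3 of 5 KO libraries.

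**Figure D3:**
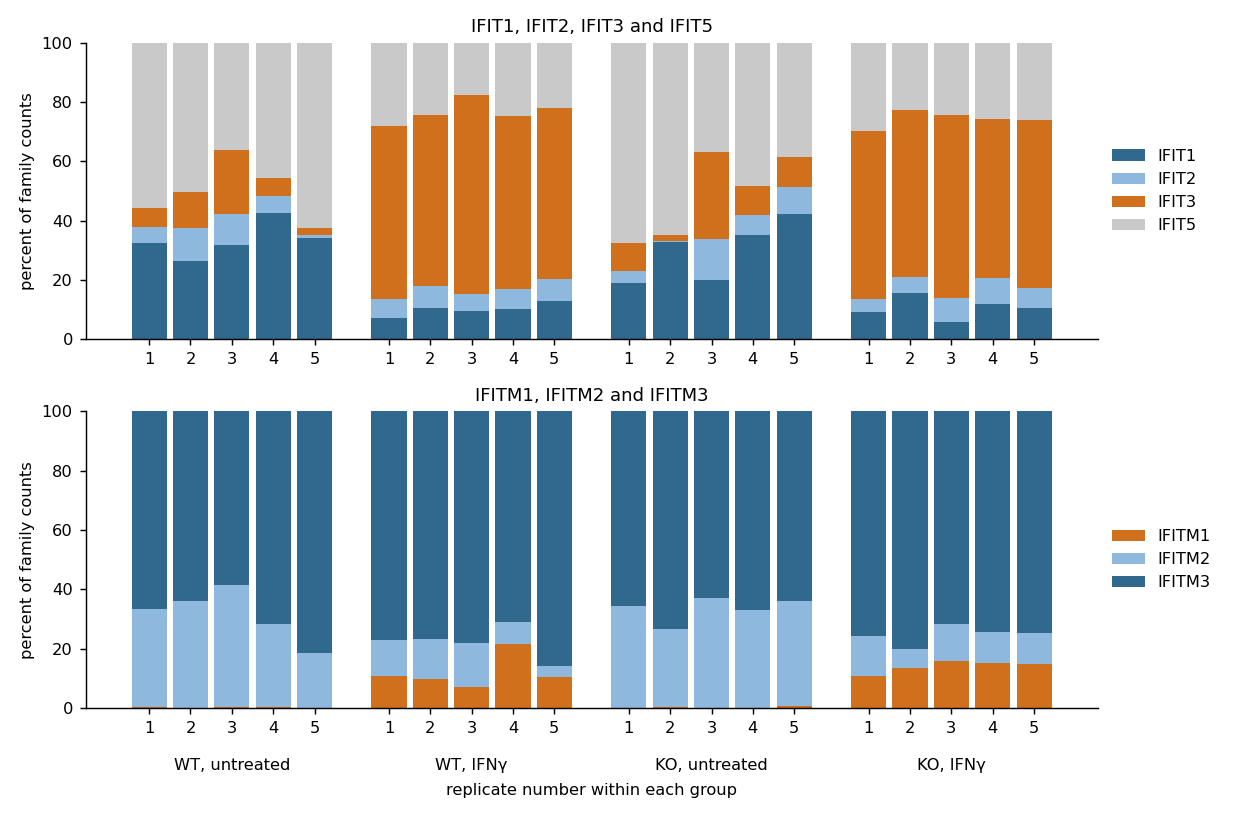
Share of each member in the counts of its family (percent, stacked bars from 0 to 100) in each of the 20 libraries, with IFIT genes above and IFITM genes below. After IFNγ the share of IFIT3 is larger and that of IFIT5 smaller, and IFITM1 becomes visible (shares of counts, not per length).

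The make-up of each family in counts changed with IFNγ, and the changes were not tested between genotypes. IFIT5 held 50.1% ± 9.96 (SD, n = 5) and IFIT3 9.69% ± 7.45 of the counts of the 4 IFIT genes in untreated WT clones, and 23.4% ± 3.80 and 59.9% ± 4.05 after IFNγ. In KO clones IFIT5 went from 51.3% ± 14.4 to 25.7% ± 2.56 and IFIT3 from 12.1% ± 10.2 to 57.0% ± 3.02. The mean share of IFIT2 in WT was 6.79% ± 4.19 before and 6.76% ± 0.73 after treatment, and single untreated clones ran from 0.974% to 11.3%. Among the IFITM genes IFITM1 went from 0.190% ± 0.142 to 12.01% ± 5.68 in WT and from 0.256% ± 0.183 to 14.1% ± 1.97 in KO, IFITM2 from 31.4% ± 8.60 to 10.2% ± 4.65 in WT, and IFITM3 from 68.4% ± 8.63 to 77.8% ± 5.22 in WT. In KO clones IFITM2 went from 33.2% ± 3.98 to 10.6% ± 2.68 and IFITM3 from 66.5% ± 4.04 to 75.3% ± 3.10.

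IFIT2 and IFIT3 differed between clones by far more before treatment than after it. Across the 10 untreated clones the SD of log2 CPM was 1.70 for IFIT2 and 1.44 for IFIT3, and after IFNγ it was 0.50 and 0.32. In the KO clones the highest untreated library exceeded the lowest 88.6-fold for IFIT2 and 35.6-fold for IFIT3, against 3.53-fold and 1.74-fold after IFNγ. The lowest IFIT2 value, in KO replicate 2, rests on 5 counts. The SD of the other 5 members hardly moved, from 0.50 to 0.55 for IFIT1, 0.21 to 0.20 for IFIT5, 0.84 to 0.76 for IFITM1, 0.66 to 0.61 for IFITM2 and 0.33 to 0.32 for IFITM3. The loss of spread was not particular to IFIT2 and IFIT3. For IFI44, another interferon gene, the SD went from 2.41 to 0.41 in WT and from 3.09 to 0.37 in KO.

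The clones that were low in IFIT2 were low in IFIT3. The lowest of them, KO replicate 2 and WT replicate 5, were also the lowest of their untreated groups for OAS1, OAS3 and IFI44. Low levels in these clones were therefore not particular to IFIT2 and IFIT3. Over the 10 untreated libraries, which are 10 separate clones, Pearson's r of log2(CPM + 0.1) was 0.95 and Spearman's rho 0.96 (permutation p = 3.00e-05 for each, 0.00126 after adjustment over 42 correlations). Without KO replicate 2 and WT replicate 5, the clones farthest from the median, r was 0.87 (exact permutation p = 0.00191, 0.0802 adjusted). IFITM2 joined them untreated, with r of 0.88 to IFIT2, 0.80 to IFIT3 and 0.78 to IFITM3 (rho 0.78, 0.73 and 0.77). After IFNγ the pairs were IFIT2 with IFIT3 (r = 0.79, rho = 0.73), IFIT2 with IFIT5 (r = 0.81, rho = 0.85) and IFITM1 with IFITM3 (r = 0.86, rho = 0.72). Each of these 6 had an adjusted permutation p of 0.0374 for r and from 0.0636 to 0.107 for rho. None of the 7 pairs kept an adjusted p under 0.05 once the 2 farthest libraries were left out.

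**Figure D4:**
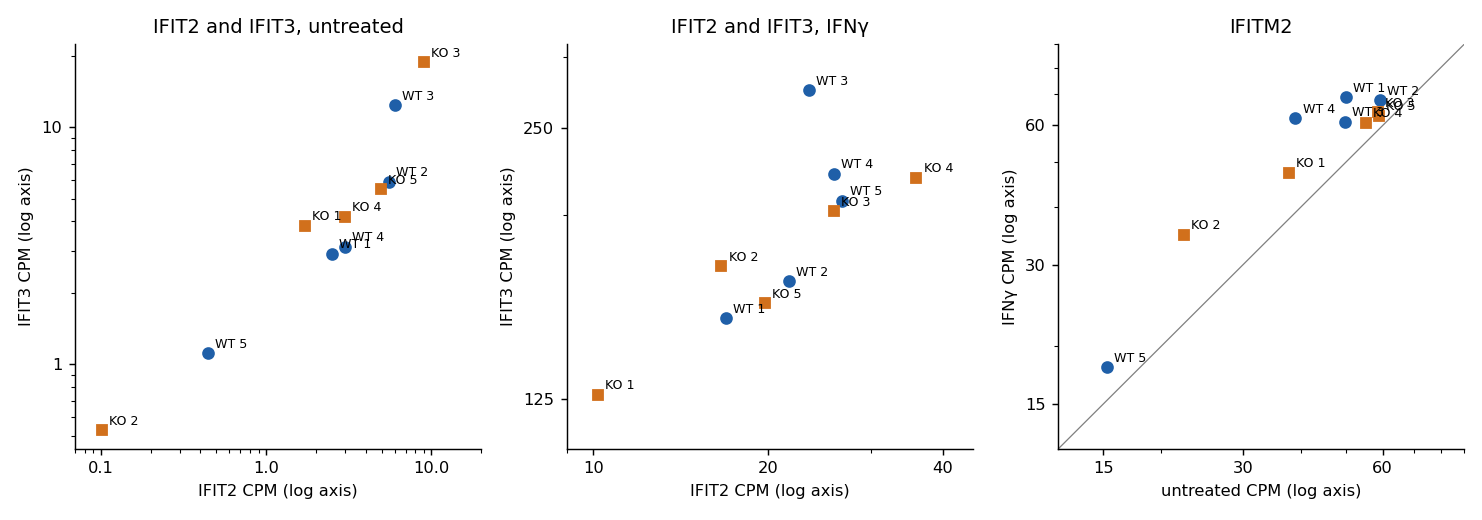
IFIT2 against IFIT3 in untreated and in treated libraries, and untreated against treated IFITM2 with the line of equal values, as CPM on log axes whose ranges differ, each point being 1 clone label (blue circles WT, orange squares KO). KO replicate 2 and WT replicate 5 lie low in IFIT2 and IFIT3 before treatment and not after it, and both lie low in IFITM2 in both conditions.

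The level of IFITM2 before and after IFNγ was compared over clones. Its untreated and treated levels correlated over 10 clones at r = 0.95 (permutation p = 7.30e-04, 0.00511 adjusted over the 7 members) and rho = 0.79 (permutation p = 0.00861, 0.0603 adjusted), a relation looked at after the values had been seen. Without WT replicate 5 and KO replicate 2 r was 0.66 (exact permutation p = 0.0687), so it rests largely on these clones, and without KO replicates 4 and 5 it was 0.96. For the other 6 members r ran from -0.16 for IFIT5 to 0.54 for IFITM1, with adjusted permutation p from 0.343 to 0.647. Without its own 2 farthest clones each, r was 0.74 for IFITM1 and 0.73 for IFITM3 (unadjusted exact permutation p = 0.0436 and 0.0319), no lower than for IFITM2, and from -0.50 to 0.50 for the IFIT genes, so the relation was not shown to be particular to IFITM2.

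The pathway around the families was read from lists of genes with known roles. Of 21 interferon genes none was tested in the comparisons of 2 groups, since the highest count of any was 21, for IFNE, and IFNB1 and the 13 IFNα genes had at most 3 counts in every library. IFNE alone was tested for the difference between responses, where it was not called (-1.40). Of the 9 receptor chains and their kinases JAK2, which is bound to the IFNγ receptor, was called in both genotypes (1.89 in WT and 1.71 in KO on the log2 scale, edgeR adjusted p = 3.87e-05 and 0.00146), and IFNLR1 was lowest, at -0.38 and -0.68. Of 7 STAT and IRF genes 3 were called in each genotype: STAT2 (1.79 and 1.96), IRF9 (2.28 and 2.27) and IRF1 (4.96 and 4.72), with IRF7 lowest (-0.34 and 0.01). Among the negative regulators SOCS1 (2.20 and 2.10) and USP18 (2.02 and 2.03) were called, 2 of 6 tested in WT and 2 of 5 in KO, while SOCS3 was lowest, at -0.97 and -1.18 (edgeR adjusted p = 0.0744 and 0.0148).

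Genes that act with the proteins of these families were read from short lists. Over all genes tested 2.48% were called higher in WT and 1.7% in KO. At such shares a list of 5 or 4 genes without a call says little about its genes. None of 5 genes for proteins that modify or bind IFITM proteins was called (from ZDHHC20, a palmitoyl transferase, at -0.31 in WT and KO to SETD7, a lysine methyltransferase, at 0.36 and 0.46). None of 4 cap methylation genes was called, with medians of 0.31 in both genotypes. CMTR1 and CMTR2 add the ribose methylation that IFIT1 senses, and RNMT and PCIF1 methylate bases at the cap. PCIF1 was lowest, at 0.04 in WT and -0.01 in KO, and highest were CMTR1 in WT (0.50) and RNMT in KO (0.56).

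By median the members stand between the lists of other interferon genes and the rest, but single values overlap widely and the lists were not tested against each other. The members ran from 0.40 to 8.15 log2 units in WT, and 5 of 7 were called there and 4 of 7 in KO. Their median log2 fold change was 2.32 in WT and 2.12 in KO, where all genes tested had a median of -0.03 in each. Of 16 tested classical type I genes, such as those of the OAS and MX families, 12 were called in WT (median 3.21) and 11 in KO (median 3.37), from MX1, at -0.01 and 0.50 and not called, to XAF1, at 10.77 in WT and at least 840.1-fold higher in KO, where its untreated libraries were at the floor of 3 counts a library. Of 10 classical type II genes 9 were called in each genotype, with medians of 10.51 in WT and 10.15 in KO when 3 genes at the floor are set to their lower bound (10.94 as fitted). Lowest was ICAM1, at -0.74 and -0.55. Highest was IDO1, at 14.34 in WT and at least 11445.5-fold higher in KO. GBP5 had the highest KO value that is not a bound (14.85). Values that are not bounds can rest on few untreated counts too. IDO1 had at most 7 counts in any untreated WT library and GBP5 at most 5 in any untreated KO library, each with a median of 0. In untreated WT libraries XAF1, CXCL9, CXCL10 and GBP5 had at most 4, 6, 4 and 7 counts. The sizes of these rises are therefore loosely set. No gene of these lists was called between WT and KO.

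Genes beside the clusters were read next. Of the 5 genes on each side of the IFIT cluster and of the IFITM cluster none was called higher in either genotype. However, 10 of the 20 were too low to be tested. Over all genes tested 2.48% in WT and 1.7% in KO were called higher, so no such call among so few says little. Called lower in WT were 100 of 19522 genes. PANK1, a pantothenate kinase gene beside the IFIT cluster, fell in WT (-1.02 ± 0.17, edgeR adjusted p = 0.00239) and was at -1.01 ± 0.27 in KO (edgeR adjusted p = 0.0410), and B4GALNT4, a glycosyltransferase gene beside the IFITM cluster, fell in WT (-1.14 ± 0.23, edgeR adjusted p = 0.00945) and was at -0.998 ± 0.29 in KO (edgeR adjusted p = 0.0635). LOC101926887, which overlaps IFIT3 on the other strand, was at 1.61 in WT and 1.95 in KO and was not called.

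Over the 10 treated libraries the genes whose log2 CPM ran most like that of a member, of 15027 genes with a mean of at least 1 CPM, were mostly outside the interferon lists, and with 10 points high values of r are common among so many genes. The top 3 were HLF, LOC101927550 and KBTBD7 for IFIT1 (r from 0.94 to 0.96), BDKRB2, CHD5 and LOC642846 for IFIT2 (0.92 to 0.93), NDUFC1, LOC100129534 and IFI27L1 for IFIT3 (0.84 for each), and UBE2L6, the conjugating enzyme of ISG15, CARF and NDUFC2 for IFIT5 (0.89 to 0.90). For IFITM1 they included GBP1P1 (0.92) and IFI27 (0.89), and they were for IFITM2 KCNT2, ZNF784 and TDP2 (0.94 to 0.96) and for IFITM3 CBLN4, OS9 and GBP1P1 (0.91 to 0.94). GBP1P1, a pseudogene of an IFNγ-induced GTPase, was the gene that IFITM1 and IFITM3 shared.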

How the data were processed

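RNA of 5 WT and 5 ZBTB48 KO clones of U2OS, untreated or treated with IFNγ, was sequenced by the authors as mRNA libraries made with a stranded kit. The deposited values are raw read counts per RefSeq gene with no normalization: per the submitters' processing notes, reads were aligned to GRCh38 with STAR 2.7.9a, unique mappers were kept, and counting used featureCounts 2.4.0. The strand setting of the counting is not given in the sources used here. How reads over overlapping genes on opposite strands were counted is therefore not known. The authors' exon lengths, deposited beside the counts, were used for CPM per kb. The authors fitted DESeq2 1.40.1.

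Counts were tested in R 4.3.3 with edgeR 4.0.16 (TMM, filterByExpr, robust quasi-likelihood, Benjamini-Hochberg adjustment over all genes tested), each comparison on its own 10 libraries and the difference between responses on all 20. SEs were derived from each fold change with its F statistic, and 95% intervals from the t distribution with edgeR's degrees of freedom. Positive values mean higher with IFNγ or higher in WT. Single levels and responses by clone were compared by two-sided exact permutation tests of log2(CPM + 0.1), in which 5 against 5 libraries have 252 splits, and correlations by permutation with 100000 resamples. Named were the 7 members, ZBTB48, STAT2, IRF9, IRF1, the lowest and highest gene of each list, the 5 genes on each side of each cluster and the 3 genes most like each member. USP18, GBP5, OAS1, OAS3, IFI44, SP7 and BGLAP were named after their values had been seen. Some genes that this rule names are not reported here. The members and lists were chosen with earlier results of these data known.

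Clone labels pair treated with untreated libraries within a genotype. Deviations from the group means correlated at r from 0.774 to 0.888 for the 5 WT numbers and at 0.770, 0.841 and 0.684 for KO numbers 1 to 3, across 14852 genes. WT and KO numbers do not pair (r from -0.244 to 0.257), so a replicate block between WT and KO joins unrelated clones and is no check on those comparisons. Alternatives were DESeq2's size factors, DESeq2 1.42.0 with and without shrinkage, no filter, another cut-off, all 20 libraries fitted together, a replicate block, a pseudocount of 1 CPM, and leaving out clones. The scripts were tested on simulated data.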

Additional observations from a re-analysis of the deposited data

Results flagged for a closer look

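In 32 groups of 5 libraries the highest or lowest library was compared with its nearest neighbour, as the gap divided by the range, against Dixon's 95% critical value. The ratios were of CPM and not of log2 CPM, on which they can be smaller. Of these groups 6 passed, where chance passes about 1 in 20 of independent groups with normal values. These groups share clones and CPM need not be normal, so the 6 were not read as an excess over chance. IFIT3 was high in untreated KO replicate 3 (18.8 CPM, ratio 0.728), the replicate whose ZBTB48 mRNA was also far above that of the other KO libraries untreated (ratio 0.724) and treated (ratio 0.746). IFITM1 was high in untreated KO replicate 5 (0.969 CPM, ratio 0.846) and in treated WT replicate 4 (189 CPM, ratio 0.784). IFITM2 was low in treated WT replicate 5 (18.02 CPM, ratio 0.845), where it was also lowest before treatment. The part of any other difference between these libraries in these values was not tested.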

How the results depend on the processing

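The direction of all 14 IFNγ responses (7 members in WT and in KO) was kept under every alternative run, and the calls of IFIT3, IFIT5, IFITM1 and IFITM3 in WT and of IFITM1 in KO were kept too. DESeq2 with normal shrinkage was not run for the difference between responses, since that tool does not offer it with an interaction. Genes called in the WT response numbered 585, and 2202 at an adjusted p under 0.05 with no fold cut-off, 1414 with the clone as a replicate block, 976 with DESeq2 without shrinkage and 318 to 457 when a clone was left out. For the KO response 379 were called, and 1528, 721 and 823 under those settings, 613 with DESeq2 shrinkage, 642 with all 20 libraries fitted together, 131 to 490 when a clone was left out and 22 without KO replicates 4 and 5, where 1 member was called in place of 4 (4 without KO replicate 3). WT against KO called 3 genes untreated, and 6 at an adjusted p under 0.05, 5 with no filter, 1 with the replicate block (which here joins unrelated clones by number), 12 and 5 with DESeq2 without and with shrinkage and 5 with all 20 libraries fitted together (2 to 4 with a clone left out). After IFNγ it called 3, and 5 with no filter, 16 and 6 with DESeq2 without and with shrinkage, 6 with all 20 libraries and 3 to 5 with a clone left out. Member counts in these comparisons were 0 throughout. Smaller counts without a clone come with fewer samples. Other causes were not tested.

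WT minus KO values changed sign under some alternatives for every member in at least 1 comparison, larger estimates included, and none passed the threshold. With the replicate block, which joins unrelated WT and KO clones by number, they were 0.0803 for IFIT2 untreated, and -0.229 for IFITM1 and -0.0368 for IFITM2 after IFNγ. Without KO replicates 4 and 5 they were 0.36, 0.10 and 0.19 for IFITM1, IFITM2 and IFITM3 untreated and 0.14 for IFIT5 after IFNγ, and the differences between responses were 0.0389 for IFIT5 and -0.13 for IFITM1, with the block -0.0144 for IFIT2, 0.0204 for IFIT5 and -0.13 for IFITM1. Responses by clone gave 0.00804 for IFIT5 and -0.0939 for IFITM1 without KO replicates 4 and 5, and 0.10 for IFIT2 and -0.11 for IFITM1 with a pseudocount of 1 CPM. Leaving out a clone moved the untreated values from -0.43 to 0.50 for IFIT2, -1.02 to 0.52 for IFIT3, -0.99 to 0.22 for IFITM1, -0.32 to 0.0785 for IFITM2 and -0.16 to 0.0539 for IFITM3, the treated values from -0.0892 to 0.24 for IFIT1, -0.11 to 0.34 for IFIT2, -0.0910 to 0.11 for IFIT5, -0.64 to 0.23 for IFITM1, -0.0809 to 0.27 for IFITM2 and -0.0035 to 0.24 for IFITM3, and the differences between responses from -0.55 to 0.0459 for IFIT1, -0.36 to 0.52 for IFIT2, -0.26 to 1.10 for IFIT3 and -0.12 to 0.69 for IFITM1. The replicate block changed no member call other than those of IFIT1 and IFIT2 in WT. The 7 correlated pairs became 0 without the 2 farthest libraries. Depth limits IFITM1 and the lowest IFIT2 libraries before treatment.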
